A study of Bombus terrestris with 16 samples.

Results

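Colony T is 1 of 4 colonies of the buff-tailed bumblebee Bombus terrestris whose workers' guts were sequenced, and its 4 RNA-seq libraries are compared here with the 12 libraries of colonies K, L and S. The 4 libraries, out of 16 in all, were taken by the colony label and not by a measured value. The comparison itself was chosen with earlier results of these data known. Each colony gave 1 library from control workers and 1 from workers exposed to each of the Crithidia bombi genotypes 068, 075 and 161. Each library held gut RNA of 3 workers, pooled, which were 7 d old and were sampled 18 h after exposure. All comparisons between colonies therefore set 4 libraries that differ in exposure against 4 or 12 libraries with the same exposures, and exposure was a block in the fits between colonies. T is 1 colony, the spread between single workers was not measured, and the p-values measure the spread between these libraries only. The labels give no sequencing batch, so colony and any handling that went with it cannot be told apart.

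A bumblebee colony is the offspring of a single queen, usually mated once, so nest-mates share much of their genome and their nest, food and gut bacteria. Crithidia bombi, a trypanosome parasite of bumblebee guts, spreads through faeces, and its success depends on the combination of host colony and parasite genotype. The insect midgut secretes proteases, carbohydrases and lipases, absorbs their products, and carries detoxifying enzymes and immune receptors.

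Levels are given in CPM, a gene's reads per M reads of the library's scaled total, and differences as log2 values from edgeR's quasi-likelihood test. Genes were called at an adjusted p of 0.05 (Benjamini-Hochberg over 8406 tested genes). Gene names are the deposited descriptions, and a description with a hit score under 100 is marked as weak. The T libraries held 8.60 to 8.91 M reads, within the 8.47 to 9.29 M of all 16, and reads fell on 9410 to 9600 of 10635 records in T against 9158 to 9721 in the others. A count of 0 allows up to 3 counts, which is 0.319 to 0.366 CPM in T, for counting error only. On the first principal component, which held 34.1% of the variance, K control (54.3), S 075 (41.7) and L 161 (-51.9) stood farthest out, and the T libraries lay between -20.4 and 23.8.

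The gut label was checked against markers, taken by description. Muscle markers were myosin heavy chain, troponin, tropomyosin, titin and paramyosin, and nervous system markers synaptotagmin, synapsin, neurexin and complexin. Hemocyte markers were hemocytin, integrin and laminin, and Malpighian tubule markers were V-type ATPase subunits and aquaporin. Whether these genes are confined to the cells they are listed for was not tested. Digestive proteases summed to 77353 to 94898 CPM in T and 57763 to 108697 CPM in the others, and digestive carbohydrases and lipases to 100431 to 124875 and 69017 to 136952 CPM. Muscle markers summed to 3186 to 4671 CPM in T and 2582 to 4388 CPM elsewhere, with 2 of 29 records at 0 in T. Malpighian tubule markers summed to 8939 to 11085 CPM against 9146 to 11647, nervous system markers to 373 to 483 against 301 to 493, and hemocyte markers to 246 to 335 against 207 to 316. These summed ranges overlapped for every marker list that matched records. Gene by gene, 8 of 10 tested hemocyte markers (median log2 difference 0.24), 6 of 8 nervous system markers (0.14), 17 of 25 Malpighian tubule markers (0.08) and 11 of 20 muscle markers (0.10) were higher in T. No marker was called against the mean, and 1 hemocyte and 1 muscle marker had an unadjusted p under 0.05. The part of tissue makeup in the gene differences was not tested. The descriptions searched for fat body, gland and germ line markers matched no record. In such bulk libraries fewer cells of a type and less RNA per cell cannot be told apart.

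Over all genes, the excess likeness of the T libraries to each other did not pass its test. The mean correlation of log2 CPM was 0.966 among the T libraries (pairs from 0.954 to 0.979) and 0.957 between T and the others. The difference of 0.00875 had a one-sided exact permutation p of 0.18, from 46 of 256 arrangements of the libraries within exposure, where the smallest p possible is 0.0039. The corresponding mean within K was 0.949, within L 0.958 and within S 0.961.

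Colony T differed from the mean of K, L and S at a small set of genes, some of them by a large factor. Of 8406 genes, 12 were called (0.143%), 5 higher in T (0.0595%) and 7 lower (0.0833%). At an unadjusted p under 0.05 there were 465 genes (5.53%), 227 higher and 238 lower. The median log2 difference over all genes was 0.00, and 50.1% of genes were higher in T. Described lower genes included an aminotransferase, a glyoxylate reductase and a cytochrome P450. Described higher genes included a pair of sugar transferases and an axonemal dynein, and a weakly described higher gene was a phospholipase. In 8 of the 12 genes the 4 T values lay clear of all 12 others, and in the other 4 the T range overlapped with that of 1 other colony. Over all 8406 genes, T values lay clear above at 13 (0.155%) and clear below at 15 (0.178%). The 12 were called on these same values, so the 8 give no further support. None of the 12 changed sign under any of 30 alternative settings (29 for XM_003402914.1, which a stricter filter removed). With K, L and S pooled as 1 group, only XM_003402964.1, XM_003402914.1 and XM_003393818.1 were called. In all, 7 of the 12 had a description at a score of at least 100, 3 a weak one and 2 none.

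**Figure D1:**
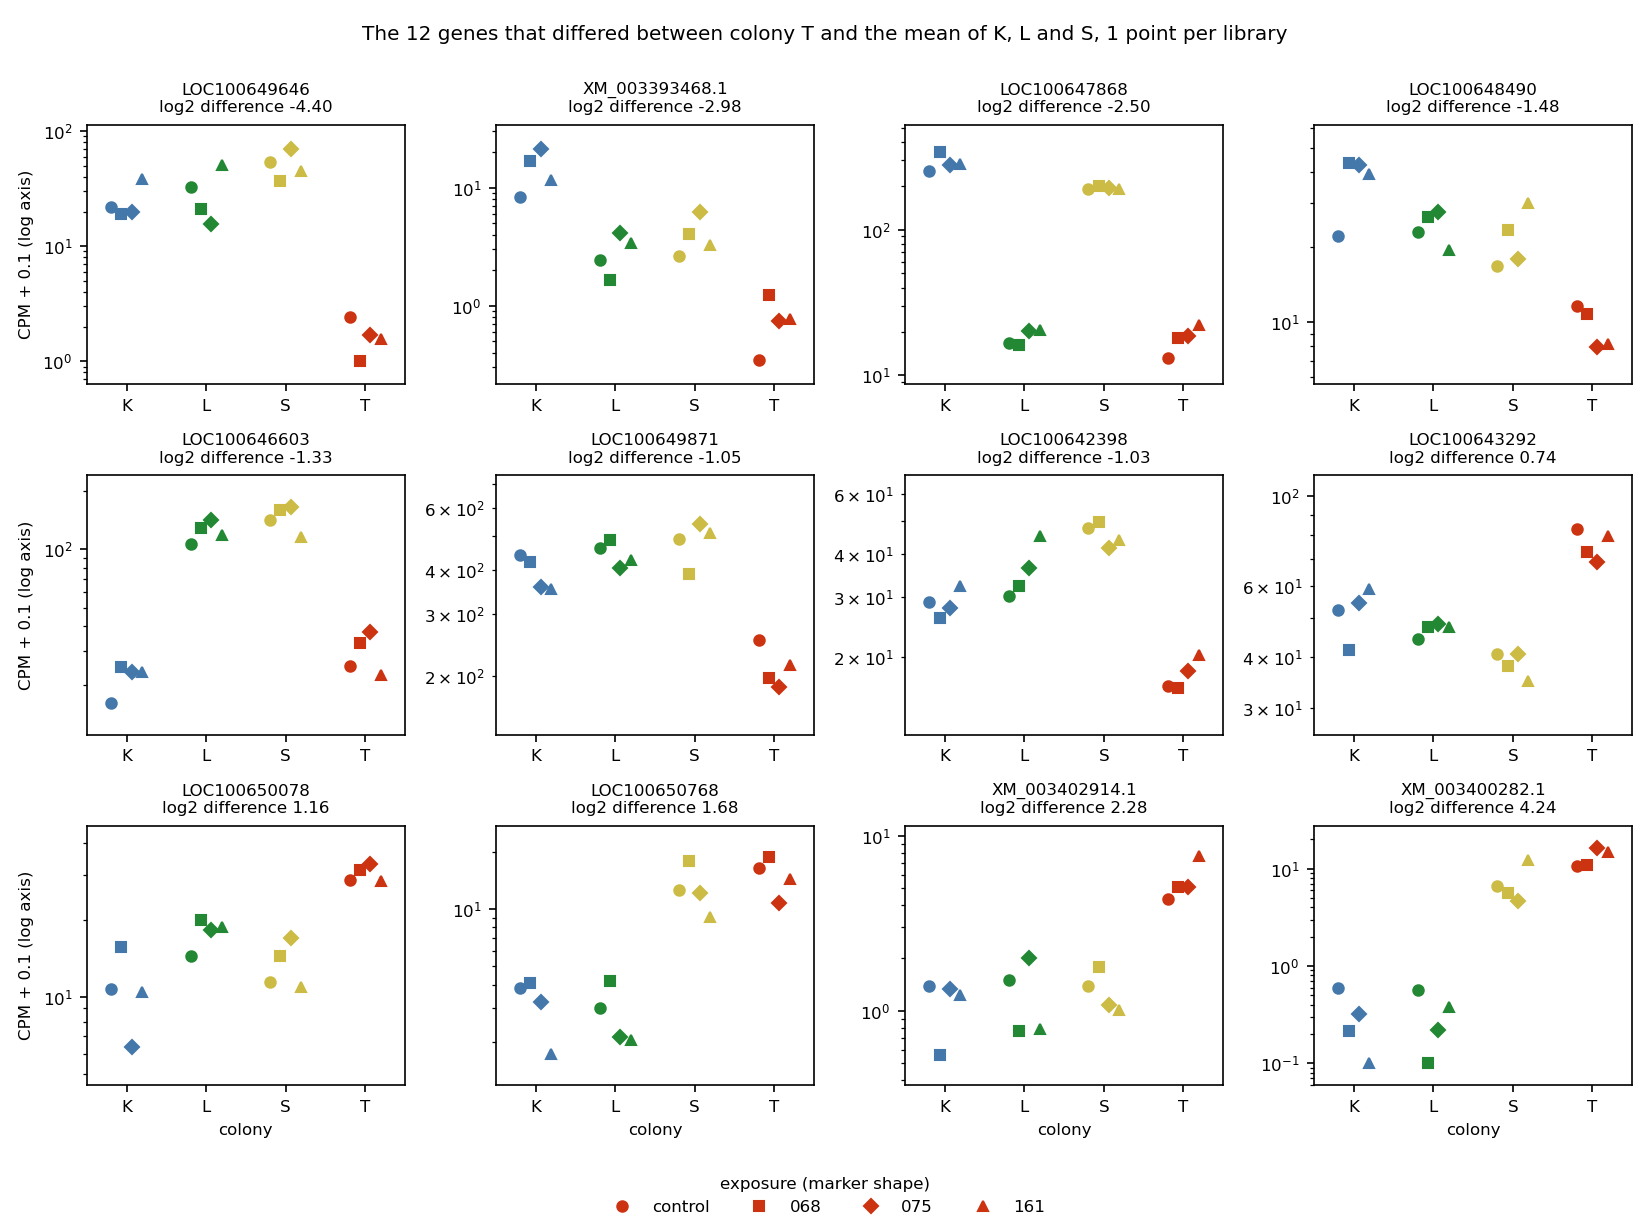
Level of each of the 12 called genes in all 16 libraries, 1 panel per gene, as CPM + 0.1 on a log axis, by colony (colour) and exposure (marker shape). LOC100649646 lies at 0.912 to 2.32 CPM in T and 15.4 to 70.3 CPM elsewhere, while LOC100647868 lies low in T and L together and XM_003400282.1 high in T and S together.

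Among the 12 called genes, T was farthest below the others at XM_003402964.1 (LOC100649646), described at the low score of 114 as valyl-tRNA synthetase, the enzyme that charges the valine tRNA. Its T values were 2.32 CPM in the control, 0.912 after 068, 1.59 after 075 and 1.45 after 161. All 4 lay far below the other 12 libraries, which ran from 15.4 to 70.3 CPM. The means were 1.57 ± 0.578 CPM (SD, n = 4) in T and 35.3 ± 17.1 CPM (SD, n = 12) in the others, a ratio of 22.5. The log2 difference was -4.40 ± 0.33 (SE), with an adjusted p of 1.57e-05, and the gene was kept under all 30 alternatives. T rested on 19, 8, 15 and 13 reads, and the authors' coverage column gives 27.4 to 42.8% of the record covered in T against 76.2 to 95.2% elsewhere. T was lower than each colony on its own: the log2 difference was -3.95 ± 0.35 from K, -4.19 ± 0.35 from L and -5.07 ± 0.36 from S. The deficit did not extend to the other records with this description. All 6 tested lay on the higher side in T without a call against the mean, from 0.04 to 1.40 on the log2 scale. Of these, XM_003394082.1 (score 74.7) and XM_003403171.1 (72.4) have weak descriptions. The record with the best hit (XM_003399043.1, score 2045) was at a mean of 104.9 CPM in T and 102 CPM elsewhere.

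One of those 6, XM_003400293.1, with the low score of 124, was the reverse case in its values. It had 8.29, 9.35, 8.08 and 5.81 CPM in T and 0.911 to 5.53 CPM elsewhere. The ranges did not meet, but the log2 difference of 1.40 ± 0.27 had an adjusted p of 0.0729. Against K alone it was called (1.97, adjusted p 0.0436), and that call was kept in 7 of 20 alternatives. How the authors' counting treated reads that match several records is not given in the sources used here, so levels of records of 1 family are uncertain relative to each other.

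Of the lower genes, XM_003393468.1 was described as kynurenine/2-aminoadipate aminotransferase (score 722), which transaminates intermediates of tryptophan and lysine breakdown. The T libraries held 0.244, 1.14, 0.638 and 0.671 CPM. All lay below the lowest of the others, 1.55 CPM, although the level also differed among those colonies: K held 8.22 to 21.1 CPM, L 1.55 to 4.02 and S 2.55 to 6.10. The log2 difference was -2.98 ± 0.34 with an adjusted p of 0.00065. By read counts, 24 in T stood against 511 in K, a 21.0-fold ratio (14.0 to 33.1, 95% interval for counting error). The ratio was 5.75 (3.72 to 9.26) for S and 4.06 (2.57 to 6.65) for L. The difference from K passed alone (-4.36 ± 0.38, adjusted p 8.8e-05). That from S passed too (-2.50 ± 0.37, adjusted p 0.0101), but without S 068, T control or T 075 it did not, with adjusted p up to 0.0753. The difference from L did not pass (-2.06 ± 0.38, adjusted p 0.0663). Without the K libraries, T against L and S gave -2.27 with an adjusted p of 0.068. The other 2 records with the same description lay slightly higher in T, at 0.20 and 0.34 on the log2 scale, and were not called. The description is weak for the one at 0.34 (XM_003395881.1, score 80.1).

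Cytochrome P450 enzymes oxidise hormones, plant compounds and pesticides. The record XM_003393818.1 (LOC100649871), described as family 28 (score 283), stood at 253, 198, 187 and 215 CPM in T. All 4 lay below the 353 to 541 CPM of the others. The means were 213 ± 29.2 CPM (SD, n = 4) and 440.3 ± 59.2 CPM (SD, n = 12). It fell by 1.05 on the log2 scale (SE 0.11, adjusted p 0.000462) and was kept under all 30 alternatives. It was called against each colony, at -0.89 ± 0.13 from K (adjusted p 0.00781), -1.07 ± 0.13 from L (0.0025) and -1.19 ± 0.13 from S (0.000749). The call against K was lost without T 068 (adjusted p 0.0652) or T 075 (0.0605). The other 2 records of family 28 lay on the same side without a call: XM_003393819.1 at -0.32 ± 0.15 and XM_003393817.1 at -0.11 ± 0.14.

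A further pair of lower genes had weak descriptions. XM_003394077.1 (LOC100642398, centromeric protein E, score 80.9) was at 16.3, 16.2, 18.2 and 20.2 CPM in T. These lay below the 25.8 to 49.4 CPM of all others, with the K libraries nearest. The log2 difference was -1.03 ± 0.11 (adjusted p 0.000533), and it passed against L (-1.01 ± 0.13, 0.00416) and S (-1.37 ± 0.13, 0.000183). Against K it passed narrowly (-0.69 ± 0.13, adjusted p 0.0491) and was kept in 3 of 20 alternatives. XM_003401715.1 (LOC100648490, mucin-5B, score 51.2), matched to a gel-forming mucin of vertebrates, was at 11.5, 10.7, 7.86 and 8.05 CPM. The other 12 libraries ran from 16.7 to 43.5 CPM, so the ranges did not overlap. Its log2 difference was -1.48 ± 0.21 (adjusted p 0.00512), and the call was lost without T 068 (adjusted p 0.0543), T 075 (0.0603) or T 161 (0.0606). Of the colonies taken singly only K passed (-1.92 ± 0.24, adjusted p 0.00229).

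In 2 of the lower genes the T range overlapped with that of 1 other colony. XM_003398972.1 (LOC100647868), described as glyoxylate/hydroxypyruvate reductase (score 611), which reduces glyoxylate and hydroxypyruvate in the cytosol, was at 13.2, 17.9, 18.6 and 22.0 CPM in T. The 4 libraries of L held 16.1 to 20.3 CPM and overlapped with T, whereas K held 253 to 341 and S 189 to 198 CPM. The means were 17.9 ± 3.65 in T, 18.3 ± 2.21 in L, 288 ± 37.5 in K and 192 ± 4.20 in S (CPM, SD, n = 4 each). T differed from K by -4.02 ± 0.15 (adjusted p 2.26e-09) and from S by -3.44 ± 0.14 (1.32e-08) on the log2 scale. Against L the difference was -0.04 ± 0.14 (adjusted p 0.957). The average over the 3 colonies, -2.50 ± 0.13 (adjusted p 1.7e-07), thus joins unlike colonies. The other 2 tested records with this description differed by -0.12 and -0.01.

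The other gene of this kind, XM_003400974.1 (LOC100646603), has no description. It was at 24.9, 32.6, 37.5 and 22.3 CPM in T, of which T 161 lay within the 16.035 to 24.5 CPM of K and the other 3 above it. L held 106 to 142 and S 115 to 164 CPM, far above both. T differed by -2.09 ± 0.14 from L (adjusted p 5.35e-06) and by -2.32 ± 0.14 from S (7.45e-07), and by 0.42 ± 0.14 from K (0.405). The averaged difference was -1.33 ± 0.12 (adjusted p 6.84e-05).

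Among the higher genes, XM_003400282.1 had the largest difference. It is described weakly (score 95.9) as phospholipase A2, an enzyme that frees fatty acids from membrane phospholipids and that also occurs in bee venom. The T libraries held 10.5, 10.7, 16.4 and 14.8 CPM. Those of K held 0 to 0.495 and those of L 0 to 0.464 CPM, at or near the limit of detection, while those of S held 4.57 to 12.3 CPM and overlapped with T. In reads, 466 in T stood against 8 in K, a 59.0-fold ratio (29.7 to 137, 95% interval for counting error). Against the 7 reads of L the ratio was 62.9 (30.3 to 157), and against the 275 of S it was 1.79 (1.54 to 2.09). The fitted log2 differences were 5.86 ± 0.61 from K (adjusted p 0.000351), 5.93 ± 0.62 from L (0.000446) and 0.92 ± 0.44 from S (0.958). The averaged value was 4.24 ± 0.38 (adjusted p 6.84e-05). Since 6 of the 12 other libraries held 3 reads or fewer, these fitted values depend on the prior count. Of 6 other tested records with the description, 5 were higher in T and none was called. The lower one, XM_003402321.1, is described weakly (score 67). The record XM_003400283.1 ranged widely, at 1531, 397, 818 and 525 CPM in T and 55.9 to 2913 CPM elsewhere (1.43 ± 0.67, adjusted p 0.905).

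XM_003396646.1 (LOC100650768), described as lactosylceramide 4-alpha-galactosyltransferase (score 416), an enzyme that adds galactose to glycolipids in vertebrates, showed the same order of colonies. It was at 16.3, 18.6, 10.6 and 14.3 CPM in T. S overlapped with T at 8.99 to 17.7 CPM, and K (1.63 to 3.99) and L (1.93 to 4.09) lay below both. T exceeded K by 2.28 ± 0.23 (adjusted p 0.0003) and L by 2.49 ± 0.23 (0.000166), and differed from S by 0.25 ± 0.21 (0.999). The averaged difference was 1.68 ± 0.17 (adjusted p 0.000204).

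In the remaining 3 higher genes T stood above every other library. XM_003398282.1 (LOC100643292) is described as galactosylgalactosylxylosylprotein 3-beta-glucuronosyltransferase 3 (score 615), which completes the sugar linker of proteoglycans. Its T values were 82.9, 72.6, 68.8 and 79.5 CPM. The 12 others held 34.8 to 58.8 CPM, lowest in S. The means were 75.9 ± 6.42 CPM (SD, n = 4) and 45.7 ± 7.05 CPM (SD, n = 12). It rose by 0.74 ± 0.09 on the log2 scale (adjusted p 0.00189), and taken singly it passed against S only (0.98 ± 0.12, adjusted p 0.00199). Without the S libraries the difference was 0.62 with an adjusted p of 0.076.

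XM_003402914.1, an axonemal dynein heavy chain (score 6678), a motor of cilia and sperm tails, was at 4.27, 5.01, 4.99 and 7.60 CPM in T. The others held 0.455 to 1.89 CPM, and no library of another colony came near T. T rested on 35, 44, 47 and 68 reads, over 17.7 to 29.1% of the record by the authors' coverage column, against 2.24 to 8.37% elsewhere. The mean ratio was 4.83 and the log2 difference 2.28 ± 0.31 (adjusted p 0.00411). The call was lost without T 068 (adjusted p 0.0543) or T 161 (0.0705). Against single colonies it passed from K only (2.43, adjusted p 0.0356), and that call was kept in 11 of 20 alternatives. Of 9 other tested axonemal dynein heavy chain records, 5 were higher in T and 4 lower, and none was called against the mean. One of them, XM_003395900.1, was called against K and is described with the comparisons by colony.

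XM_003396477.1 (LOC100650078), without a description, was at 28.5, 31.1, 32.9 and 28.2 CPM in T. The others ran from 6.26 to 19.9 CPM, highest in L. The log2 difference was 1.16 ± 0.17 (adjusted p 0.00512), and the call was lost without T control (adjusted p 0.0524), T 075 (0.0651) or T 161 (0.0586). It passed against K (1.52 ± 0.22, adjusted p 0.00661) in all 20 alternatives and against S (1.19, adjusted p 0.0463) in 9 of 20.

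Set against each colony in turn, T differed at 25 genes from K (0.297%), 7 from L (0.0833%) and 16 from S (0.19%), all 3 comparisons sharing the T libraries. T was higher at 9 and lower at 16 of the genes against K, at 2 and 5 against L, and at 7 and 9 against S. At an unadjusted p under 0.05 the counts were 683, 639 and 444. Together 36 genes were called in at least 1 of the 4 comparisons with T. Of these, 3 were called against all 3 colonies (XM_003402964.1, XM_003393818.1 and XM_003394077.1), 6 against a pair of colonies and 27 against 1. Each of the 12 genes called against the mean was called against at least 1 colony. The counts moved with single libraries. The count against K was 14 without K 068, 15 without K 075, 16 without L control, 13 without T 068, 11 without T 075 and 15 without T 161. Against L it was 23 without K control, 12 without K 068, 14 without L 161 and 12 without T control. Against S it was 8 without S 068, 10 without S 161, 7 without T control, and 10 without T 068 or without T 075. The count of 5 genes higher in T than the mean was 3 without T 161.

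**Figure D2:**
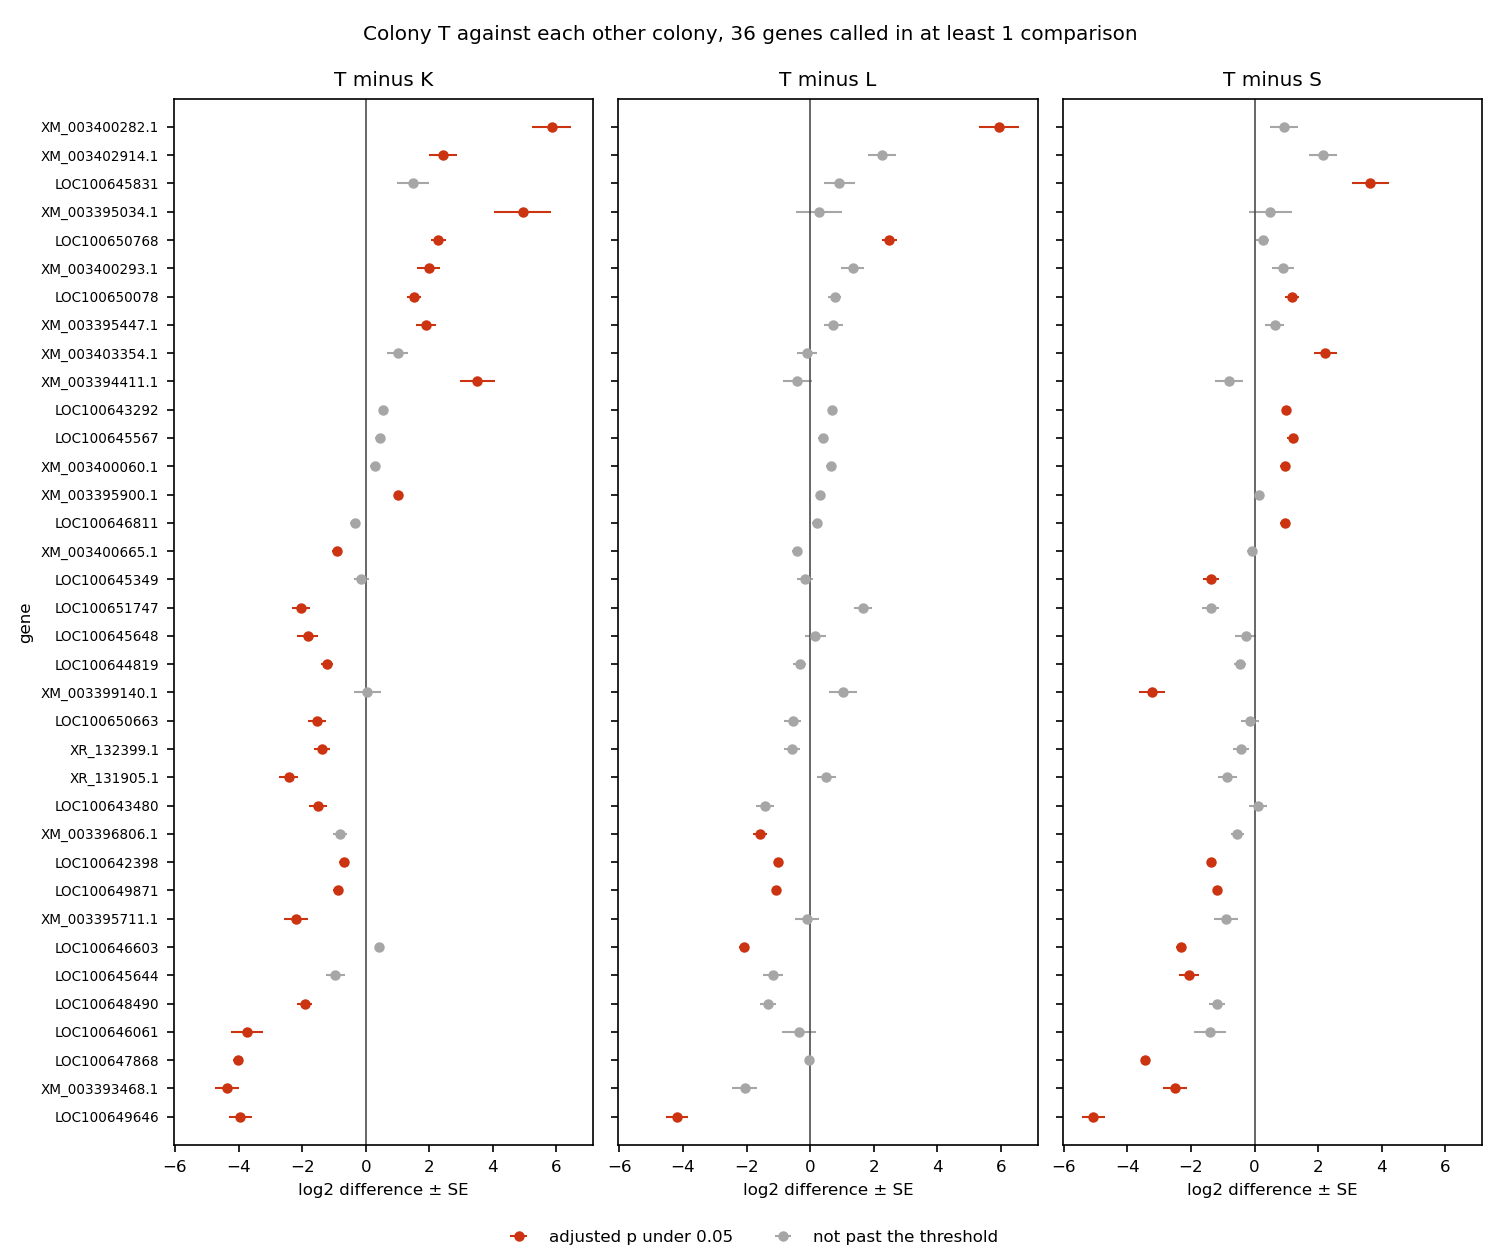
Log2 difference ± SE between colony T and K, L and S for the 36 genes called in at least 1 comparison (1 row per gene, 1 panel per colony; red, adjusted p under 0.05). The 3 genes called in every panel are LOC100649646, LOC100649871 and LOC100642398, all lower in T.

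Beyond the 12 genes, 24 were called against single colonies, and the following were named after their values had been seen. Against K, XM_003393594.1 (LOC100651747), a tetraspanin (described as transmembrane 4 superfamily member 2), a membrane organiser, was at 28.2, 16.5, 19.1 and 13.3 CPM in T and 52.5 to 100.1 CPM in K. T was clear of all 3 colonies but between them, since L held 5.19 to 8.01 and S 32.3 to 65.7 CPM. The log2 difference was -2.03 ± 0.28 from K (adjusted p 0.00356), 1.66 ± 0.29 from L (0.0614) and -1.38 ± 0.27 from S (0.0809).

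The gene XM_003395900.1, another axonemal dynein heavy chain (score 2076), was at 182, 115, 129.9 and 163 CPM in T, above the 51.5 to 97.9 CPM of K (1.03 ± 0.14, adjusted p 0.00356). L (96.6 to 138.8 CPM) and S (119.6 to 138.5 CPM) overlapped with T. XR_131905.1, weakly described as integrin beta 1 (score 63.2), a receptor for the matrix, was at 4.27, 7.86, 10.1 and 5.37 CPM in T and 26.8 to 60.7 CPM in K (-2.42 ± 0.30, adjusted p 0.00194). The calls of these 3 genes against K were kept in all 20 alternatives run for them. Fumarylacetoacetase (XM_003399978.1, LOC100644819), the last enzyme of tyrosine breakdown, was at 20.0, 20.4, 21.0 and 22.1 CPM in T and 34.4 to 65.5 CPM in K. The T values were the tightest of the 4 colonies and overlapped with those of L. Its difference from K, -1.22 ± 0.20 (adjusted p 0.0153), was lost without T 068 (0.103), T 075 (0.0842) or T 161 (0.107). Of the 25 calls against K, 11 were kept in all alternatives.

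Against S, serpin B (XM_003399140.1, score 296), of the family of serine protease inhibitors, was at 1.10, 1.82, 2.98 and 2.24 CPM in T. K (1.37 to 2.77 CPM) and L (0.331 to 1.51) were as low as T, and S alone was high at 12.3 to 27.9 CPM. The difference from S was -3.22 ± 0.40 (adjusted p 0.00199), and the call was kept in all 20 alternatives. A glucuronosyltransferase (XM_003398954.1, LOC100645567), of the enzymes that conjugate toxins with sugar acids, was at 148, 146, 93.0 and 209.8 CPM in T and 53.8 to 71.6 CPM in S. The ranges of T and S did not meet, while K (83.7 to 118 CPM) and L (102 to 127 CPM) overlapped with T. T exceeded S by 1.20 ± 0.17 (adjusted p 0.00713). That call was lost without S 068 (0.0532), S 161 (0.0543) or T control (0.055). Of the 16 calls against S, 7 were kept in all alternatives.

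Against L, 6 of the 7 calls were kept in all alternatives. The exception was Toll-like receptor 3 (XM_003396806.1), of a receptor family that starts immune and developmental signalling in insects. It was at 19.9, 14.7, 11.6 and 11.6 CPM in T and 34.1 to 56.0 CPM in L. All 4 T values lay below those of L and S, and T control lay within the range of K. The log2 difference from L was -1.57 ± 0.22 (adjusted p 0.00702), lost without T 068 (0.0531), T 075 (0.0692) or T 161 (0.0622).

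Counted without a test, the 4 T values lay above all 12 others at 13 genes (0.155%) and below them at 15 (0.178%), 28 in all. The same count was 39 for K, 25 for L and 54 for S, so K and S each had more such genes than T, and L fewer. By the fit against the mean of the other 3 colonies, K gave 30 genes (0.357%), L 9 (0.107%) and S 21 (0.25%). Of the separate genes, 20 were not called, 10 in each direction, and those named next were chosen after their values had been seen.

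Ribosomal protein L14e (XM_003397400.1) was at 318, 347, 338 and 333 CPM in T and 366 to 653 CPM elsewhere, a log2 difference of -0.39. Lamin B (XM_003399452.1), of the nuclear lamina, was at 137, 115, 139 and 111 CPM against 147 to 185 CPM (-0.40, adjusted p 0.141). MAP3K5 (XM_003401526.1), a kinase of stress signalling, was at 55.7, 49.7, 46.9 and 47.3 CPM against 34.1 to 42.7 CPM (0.34). In all 3 the gap to the nearest other library was smaller than the range of the others. Xaa-Pro aminopeptidase (XM_003401097.1), which trims peptides before proline, was at 23.5, 29.4, 26.6 and 24.8 CPM against 31.6 to 53.5 CPM (-0.57, adjusted p 0.153). N-sulfoglucosamine sulfohydrolase (XM_003399116.1), a lysosomal enzyme of heparan sulfate breakdown, was at 21.1, 20.4, 21.3 and 23.1 CPM against 10.1 to 18.7 CPM (0.49). A larger difference was seen at XM_003401203.1 (LOC100645101), at 68.5, 40.2, 47.9 and 39.3 CPM against 0.808 to 34.2 CPM (2.14, adjusted p 0.16).

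The record XM_003401200.1, without a description, was read in T and K and in no library of L or S. It had 1.46, 1.14, 0.85 and 1.57 CPM in T and 0.228 to 1.39 CPM in K. That is 44 reads in T and 35 in K, against 0 in each of L and S. Its difference from the mean of the other colonies had an adjusted p of 0.0874.

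Digestive proteases cut food proteins in the gut lumen and at the gut wall. Of 83 records with such a description, 71 were tested, 47 of them were higher in T, and the median log2 difference was 0.08, against 50.1% higher and a median of 0.00 over all genes. None was called against the mean. At an unadjusted p under 0.05 there were 16 (22.5%), 12 higher and 4 lower, against 5.53% of all genes. The median stayed between 0.04 and 0.11 and the count between 13 and 17 over 20 settings. In these settings 0 to 2 of the proteases were called against the mean. Without T control, 40 of the 71 were higher, with a median of 0.04 and 13 at an unadjusted p under 0.05. The median deviation of the list from its mean over all libraries was 0.20 in T control, 0.01 in T 068, 0.07 in T 075 and -0.03 in T 161, and -0.22 to 0.18 in the others. The muscle markers deviated by 0.36 in T control, -0.07 in T 068, 0.06 in T 075 and 0.15 in T 161, and by -0.16 to 0.28 in the others. The median differences of the hemocyte (0.24), nervous system (0.14), muscle (0.10) and Malpighian tubule (0.08) markers stand beside the 0.08 of the proteases, and their part in it was not tested.

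**Figure D3:**
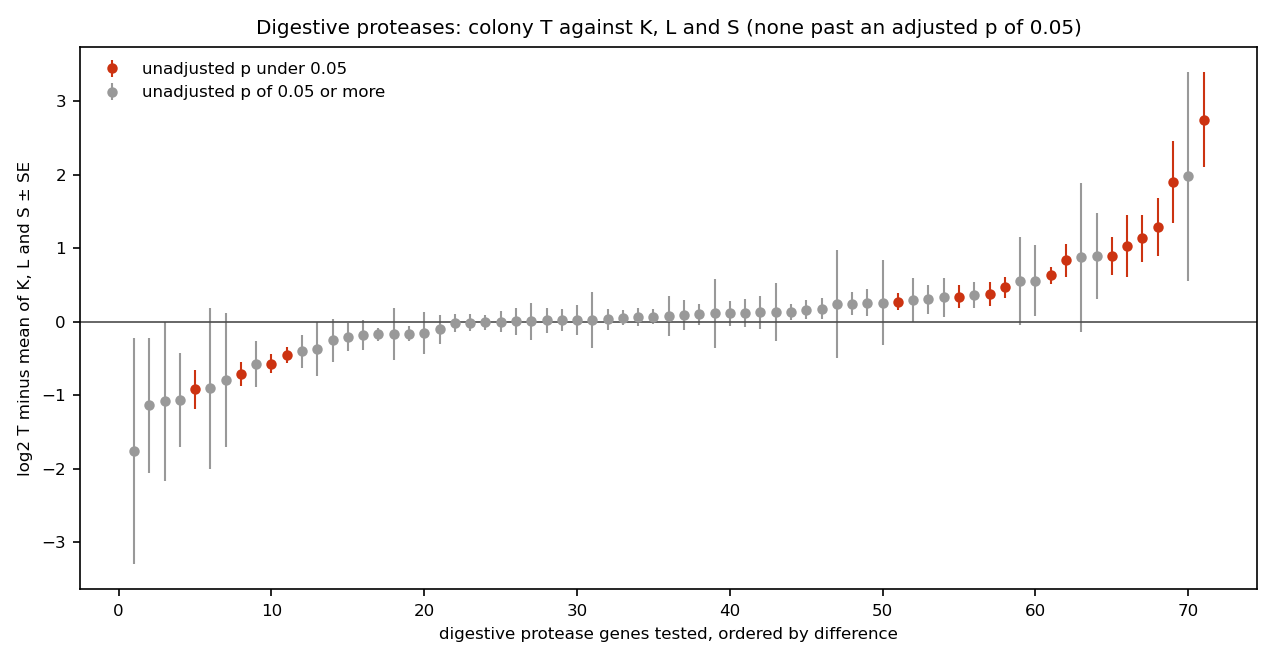
Log2 difference ± SE between colony T and the mean of K, L and S for each of the 71 digestive protease genes tested, in rising order (red, unadjusted p under 0.05). The 16 red points lie mostly at the high end, 12 above 0 and 4 below, and the whole range is wide around a median of 0.08.

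Among single proteases, trypsin XM_003400060.1 came nearest to a call. It was at 858, 727, 760.1 and 665 CPM in T, overlapping with K (493 to 785 CPM) and above L (456 to 498) and S (373 to 439). Its difference from S passed (0.95 ± 0.15, adjusted p 0.013), and that from the mean of all 3 colonies did not (0.63, adjusted p 0.056). Against the mean it was called in some alternatives, among them upper-quartile scaling, library totals, the stricter filter, DESeq2 and limma-trend. The call against S was lost without S control (0.0667), S 068 (0.0647), S 161 (0.0845), T control (0.0589), T 068 (0.0737) or T 075 (0.0519). A second trypsin (XM_003402868.1, LOC100646811) was called against S as well (0.94, adjusted p 0.0147), at 269.5, 246, 261 and 366 CPM against 132 to 169.6 CPM. K held 329 to 419 CPM of it, overlapping with T only at T 161. This call was lost without any 1 of the S libraries or T control (adjusted p 0.0589 to 0.117).

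The records described as transmembrane protease serine 9, a chain of serine protease domains in vertebrates, were 3 of the higher ones. XM_003395033.1 was at 85.6, 9.46, 156 and 41.9 CPM, lowest after 068 and highest after 075, and its log2 difference of 2.75 ± 0.65 had an adjusted p of 0.196. XM_003395034.1 was at 18.0, 18.6, 15.7 and 10.7 CPM (1.902, adjusted p 0.419), and it was called against K (4.93, adjusted p 0.0358) in 8 of 20 alternatives. K held only 0.342 to 0.895 CPM of it, near the limit of detection. L (3.75 to 54.5 CPM) and S (2.50 to 19.4 CPM) overlapped with T, at differences of 0.28 ± 0.72 and 0.49 ± 0.67. XM_003395035.1 was at 389.8, 472, 283 and 345 CPM (1.03, adjusted p 0.792). Carboxypeptidase A2 (XM_003400055.1) was at 14.1, 14.2, 13.8 and 10.7 CPM against 2.83 to 19.3 CPM elsewhere (0.90 ± 0.26, adjusted p 0.419). On the lower side, serine carboxypeptidase 1 (XM_003396686.1) was at 572, 347, 509.8 and 477 CPM against 557 to 984 CPM elsewhere (-0.71, adjusted p 0.181). Chymotrypsin XM_003398194.1 (LOC100642698) was at 26.6, 24.2, 27.1 and 26.8 CPM against 28.1 to 53.6 CPM, separate but not called (-0.45, adjusted p 0.252).

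In the detoxification list, 37 of 89 tested genes (41.6%, against 50.1% of all genes) were higher in T, with a median of -0.05. It held 1 called gene, the P450 of family 28, where 12 of all 8406 genes were called (0.143%). At an unadjusted p under 0.05 it held 7 genes, 2 higher and 5 lower. That is 7.87% of the list, close to the 5.53% of all genes, and it was 11 genes without T control and 13 without K control. A P450 of family 6 (XM_003394208.1), the family best known for insecticide metabolism, was at 908, 689.7, 629.7 and 889.9 CPM in T, overlapping with K and below every library of L and S. Its log2 difference was -0.67 (adjusted p 0.337).

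Immune recognition and signalling genes gave no call against the mean. Of 28 tested, 15 were higher in T, and 3 (10.7%, against 5.53% of all genes) had an unadjusted p under 0.05, all lower in T. Against the mean, 1 immune gene, XM_003396806.1, described as Toll-like receptor 3, was called in some alternatives. Among them were library totals, DESeq2, limma-trend, no exposure block and leaving out colony K. Of the libraries left out singly, only T control and K control gave this call. A second record described as Toll-like receptor 3 (XM_003395847.1, LOC100651402) was at 2.93, 5.24, 4.99 and 2.91 CPM, with a log2 difference of -1.09 (adjusted p 0.337), beside -0.97 (0.0729) for XM_003396806.1. Both lay on the lower side, and the ranges overlapped with K for the one and with L for the other. Of 9 serpin and melanisation genes 3 were higher, and the single lysozyme gene tested differed by -0.05.

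Of 96 ribosomal protein genes 40 (41.7%, against 50.1% of all genes) were higher in T, with a median difference of -0.04. At an unadjusted p under 0.05 there were 8 (8.33%, against 5.53%), 1 higher and 7 lower. Without T 161 there were 4 and without T 075 5, with medians of -0.01 and -0.02. Genes of mitochondrial energy (23 of 65 higher, median -0.07) and of the secretory pathway (10 of 40 higher, median -0.08) gave 2 and 0 at an unadjusted p under 0.05. Carbohydrases and lipases (28 of 43 higher, median 0.12) gave 3. Of 8 odorant-binding and chemosensory genes 7 were higher in T, the median difference was 0.47, and none had an unadjusted p under 0.05. Nutrient transport genes had 17 of 245 at an unadjusted p under 0.05, 4 higher and 13 lower, and a median of -0.02 that changed sign with the scaling. None of these lists held a called gene. The sign of a list's median was the same in all 20 settings for 10 of 25 lists, namely digestive proteases, carbohydrases and lipases, chemosensory genes and the hemocyte, nervous system and muscle markers on the higher side, and detoxification, ribosomal proteins, mitochondrial energy and the secretory pathway on the lower. For the other 15, the immune, serpin, lysozyme and nutrient transport lists included, it changed with the scaling or the left-out libraries.

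Whether T answered the parasite unlike the other colonies was tested as the difference between exposed and control libraries in T minus that in K, L and S. Here the 3 exposed libraries of a colony stood as replicates and each colony had 1 control library. No gene was called (0%). At an unadjusted p under 0.05 there were 636 genes, the smallest adjusted p was 0.502, and DESeq2 called 3 genes. Within T alone, exposed against control gave 0 called genes by edgeR, with adjusted p from 0.152 upwards and 680 genes under an unadjusted p of 0.05.

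The 4 genes with the smallest p all turned on the single T control library. A glucuronosyltransferase (XM_003398955.1, score 642) was at 1019 CPM in T control and at 417, 461 and 613 after exposure. In the other colonies the control was the lowest library: K held 497 CPM in the control and 642 to 679 after exposure, L 604 and 800.4 to 963, S 543 and 604 to 824. The interaction was -1.48 ± 0.25 (adjusted p 0.502 by edgeR, 0.00104 by DESeq2).

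Alcohol dehydrogenase (XM_003393265.1, LOC100648892), which oxidises alcohols and their products, was at 1445 CPM in T control and 433, 627 and 593 CPM after exposure. T control was the highest of all 16 libraries, the others lying between 375 and 849.7 CPM. The interaction was -1.41 ± 0.29 (adjusted p 0.611 by edgeR, 0.0182 by DESeq2). The reverse was seen at XM_003395213.1 (LOC100644249), weakly described as glutamate receptor delta-1 (score 86.3), with 8.29 CPM in T control and 51.1, 63.3 and 48.3 CPM after exposure (2.17 ± 0.44, adjusted p 0.611 by edgeR, 0.00787 by DESeq2). In L, too, the control (11.7 CPM) lay below the exposed libraries (23.7 to 32.9). XM_003394459.1, weakly described as hexokinase (score 64.7), was at 0.244 CPM in T control, under the limit that a count of 0 allows, and 4.22, 3.61 and 1.901 CPM after exposure (3.79 ± 0.84, adjusted p 0.611).

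**Figure D4:**
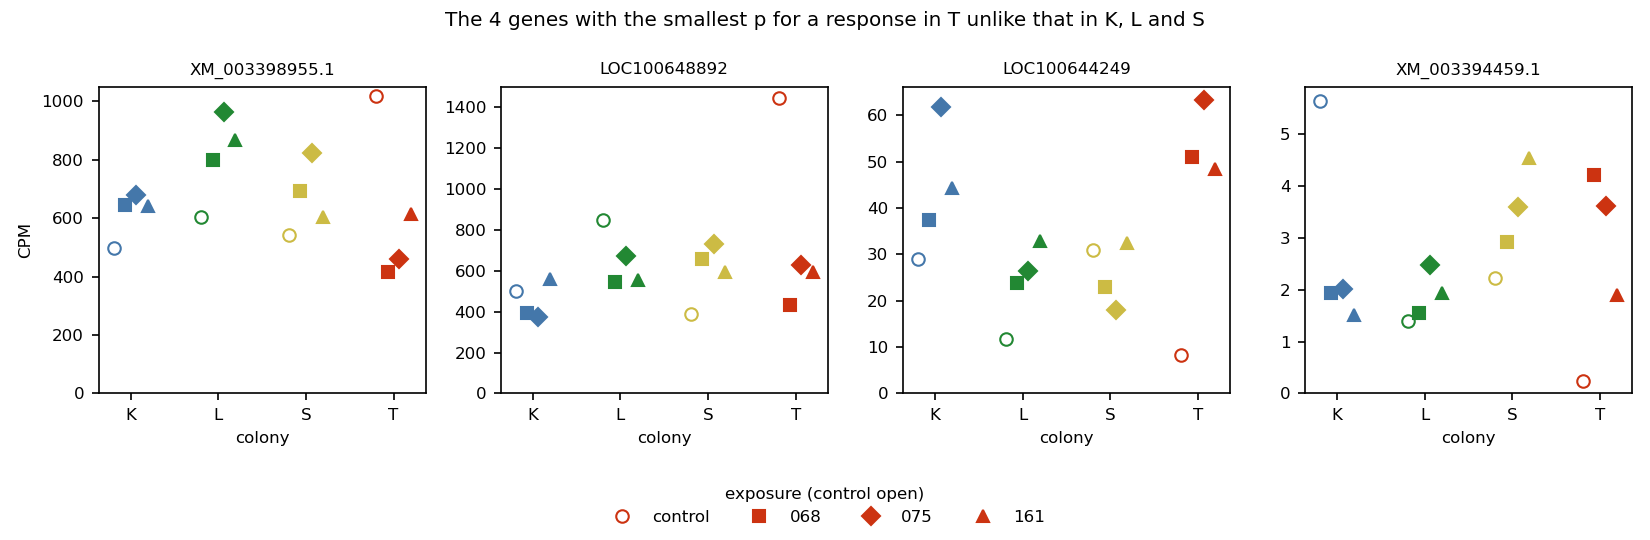
CPM by colony and exposure (open circle, control) for the 4 genes with the smallest p for a response in T unlike that in K, L and S. T control stands high at XM_003398955.1 (1019 CPM) and LOC100648892 (1445 CPM) and low at LOC100644249 (8.29 CPM) and XM_003394459.1 (0.244 CPM), and no gene passed in edgeR.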

How the data were processed

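Guts of Bombus terrestris workers were sequenced as poly(A) RNA on an Illumina HiSeq instrument, per the labels. TopHat 1.9 is named in the submitters' processing notes. The counting program, genome build and filters are not given in the sources used here. The deposited table holds, per the file headers, a read count, an RPKM (count scaled by record length and library total) and a coverage percent for each of 10635 records and 16 libraries. The count columns are whole numbers and sum to the header's library total in 16 of 16 libraries. The deposited hit score of the KEGG description was used with a minimum of 100 to name genes (6569 of 8120 described records). The RefSeq gene table matched 5155 records to symbols, and 450 records share a locus.

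Tests on the deposited count columns used the quasi-likelihood F-test of edgeR 4.0.16 (R 4.3.3), after TMM scaling and filterByExpr (8406 genes). The model had terms for colony and exposure and left 9 residual degrees of freedom. The interaction of colony with exposed state left 8. The main contrast was T minus the mean of K, L and S. Each SE given is the absolute log2 difference divided by the square root of the test's F value, and was not estimated separately. CPM values were scaled by TMM. The deposited RPKM was used only as an alternative scale for separate ranges, and the deposited coverage percent only to describe single records. Library totals were 8.47 to 9.29 M reads. Even numbers made up 69.1% of counts from 1 to 9 and 49.6% of counts from 200 to 999. Whether both mates of each pair were counted was not tested. Were they, a low count would stand for fewer fragments than it names. Read ratios have exact 95% intervals that cover counting error only.

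The rule for named genes took those called against the mean with all T values clear of the others (up to 12 described and 4 undescribed in each direction), called list members, and the 4 genes with the smallest interaction p. The 4 other called genes, and genes named for pairwise calls, separate ranges or lists, were chosen after their values had been seen. The comparison, the gene lists and the rules were chosen with earlier results of these data known. The fit was tested on simulated counts in which K, L and S shared 1 mean level per gene. Differences among those colonies, as seen in these data, were therefore not covered. Alternatives were other scalings, filters, tools (DESeq2 1.42.0, limma 3.58.1) and designs, left-out libraries and colonies, and halved counts. Halving was chosen after seeing the data.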

Additional observations from a re-analysis of the deposited data

Results flagged for a closer look

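Each colony's 4 libraries were searched for a single library far from its group, measured as the gap to the nearest other library over the group's range. The search covered 112 groups of 4 values, T over the named genes and K, L and S over the 12 called genes. It found 3, and chance alone flags about 1 in 20 groups. Carboxypeptidase XM_003400055.1 was at 10.7 CPM in T 161 and at 13.8 to 14.2 CPM in the other T libraries, a gap of 0.877 of the range. XM_003400974.1, the gene at which T 161 lay within the range of K, was at 16.035 CPM in K control and 23.1 to 24.5 CPM in the other K libraries, a gap of 0.837. XM_003402964.1, the gene lowest in T, was at 38.2 CPM in K 161 and 18.8 to 22.0 CPM in the other K libraries, a gap of 0.836, and all 4 lay above T.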

How the results depend on the processing

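Against the 12 genes that differed between T and the mean of the other colonies, DESeq2 called 51 (21 higher, 30 lower; 505 at an unadjusted p under 0.05), and a fit without the exposure block 23 (11 higher, 12 lower). Pooling K, L and S as 1 group called 3 (1 higher, 2 lower: XM_003402914.1, XM_003402964.1 and XM_003393818.1), a construction that puts colony differences into the error. Without K control, S 075 and L 161 there were 28 (15 higher, 13 lower), the 12 included. Without colony K there were 18 (10 higher), without L 20 (10 higher) and without S 12. Leaving out 1 library at a time gave 9 to 16 genes, 3 to 7 higher and 6 to 10 lower. RLE scaling gave 12, upper-quartile scaling 13, library totals 15, no filter 12, a filter of 50 reads in 4 libraries 12 (11 of the 12), limma-trend 16 and halved counts 12. Against single colonies DESeq2 called 84 (K), 72 (L) and 52 (S), and the fit without exposure 19 for L. One left-out library gave 11 to 35 for K, 6 to 23 for L and 7 to 24 for S. For the interaction DESeq2 called 3 genes, and leaving out each exposed library gave 0 to 0. A colony's only control could not be left out. The likeness of the T libraries ran from 0.00804 to 0.00962 (one-sided exact permutation p 0.172 to 0.18), and on RPKM 23 genes had separate ranges. No called gene's difference reversed. The balance of directions did: 5 higher and 7 lower became 15 and 13 without K control, S 075 and L 161. Without colony K, 10 of 18 were higher. The medians of 15 of 25 gene lists changed sign in at least 1 of 20 settings. Depth limits genes under about 0.4 CPM.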

Other observations

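No record was read in all 4 T libraries and in none of the others, and none in all 12 others but not in T. There were 450 records without a read in T that had at least 1 elsewhere. The record with the most reads among them, XM_003401133.1, held 4204 reads, 99.9% of them in K control and S 075. Records described as trehalose transporters were alike: XM_003400469.1 held 519 reads (96.0% in those 2 libraries), XR_132252.1 176 (93.2%) and XM_003400468.1, whose description is weak (score 96.3), 732 (97.5%). Read only in T were 56 records, none with more than 6 reads. The 56 and the 450 are not on equal terms, since T had 4 libraries and the others 12.

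Of the 36 genes called in any comparison with T, 20 had a symbol with a place in the RefSeq gene table. None of them neighboured another, and at least 23 genes lay between the closest pair.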
